A study of Mus musculus with 35 samples.

Results

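Small RNA of the mouse hippocampus was sequenced 1 h after the start of pilocarpine-induced status epilepticus (SE, a state of prolonged seizures). There were 2 SE mice and 2 control mice, 4 of the 35 libraries in the series and 4 of its 16 small RNA libraries, and all rows of the small RNA table of these 4 libraries were taken. The mice were C57BL/6J animals of 6 to 7 weeks, and the study's sample list gives all 4 as male. All mice first received scopolamine, which dampens the peripheral cholinergic effects. The SE mice then received pilocarpine, a muscarinic agonist, by intraperitoneal injection, 350 mg/kg per the labels with further doses until seizures of at least stage 3, and the control mice received saline vehicle. RNA came from the left hippocampus of each mouse per the labels, so fewer cells of a type and less RNA per cell cannot be told apart. Small RNA libraries of the later times, 8 h, 24 h and 120 h, each with 2 SE and 2 control mice, were used for the spread between libraries and for comparison.

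MicroRNAs are short RNAs that guide Argonaute proteins to mRNAs, mostly through their seed, bases 2 to 8, and lower the output of those mRNAs. Most mature microRNAs are stable, and several are made in only 1 or a few cell types, so that their level in a tissue sample also follows which cells it holds. Small nucleolar RNAs (snoRNAs) guide methylation or pseudouridylation of ribosomal RNA in the nucleolus, and piRNAs are the partners of PIWI proteins, best known from the germ line.

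The hippocampal microRNAs on which the results turn are shown first, with the seed in capitals, 5′ to 3′, from RefSeq (GRCm38.p6). The first set is shown because its members lie together in introns of the serotonin receptor gene Htr2c on chromosome X. Of these members, miR-1298-5p and miR-448-3p had the largest differences among abundant microRNAs.
miR-1298-5p: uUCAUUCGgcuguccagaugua
miR-448-3p: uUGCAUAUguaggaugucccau
miR-1264-3p: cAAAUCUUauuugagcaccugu
miR-1912-3p: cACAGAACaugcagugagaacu
miR-764-3p: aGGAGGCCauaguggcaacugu
No seed is shared within this set, whose mature sequences lie on the plus strand from chrX:147002324-147002345 for miR-764-3p to chrX:147158281-147158302 for miR-448-3p. The second set is the miR-34 and miR-449 family, whose members share 1 seed although they come from 3 loci on chromosomes 4, 9 and 13.
miR-34a-5p: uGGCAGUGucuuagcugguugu
miR-34b-5p: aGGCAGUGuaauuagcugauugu
miR-449a-5p: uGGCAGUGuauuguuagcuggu
The third set is miR-204-5p, which lies in an intron of the ion channel gene Trpm3 at chr19:22750610-22750631, and miR-211-5p, which has the same seed.
miR-204-5p: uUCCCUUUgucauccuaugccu
miR-211-5p: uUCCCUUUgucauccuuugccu
The last set holds the activity-regulated pair miR-132-3p and miR-212-3p, which share a seed and are made from 1 locus on chromosome 11, and miR-376b-3p, of the imprinted microRNA cluster on chromosome 12, which was lower in both SE libraries.
miR-132-3p: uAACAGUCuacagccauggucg
miR-212-3p: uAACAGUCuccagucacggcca
miR-376b-3p: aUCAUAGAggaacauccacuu

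The 4 libraries held 7683708 and 5382506 counts in the control mice and 5125815 and 5459525 counts in the SE mice, for replicates 1 and 2 of each. Of the 44884 small RNAs listed, 5405 had a count in at least 1 of the 4 libraries and 1103 passed the filter on low counts over all 16 small RNA libraries. The tested rows comprised 663 microRNAs, 169 RNA genes with a Gm number, 140 piRNA-annotated rows, 96 named snoRNAs and 35 others, and 17 of the 1103 had no count in the 4 libraries. Brain-enriched microRNAs, which mark neural tissue, were among the most abundant species, and miR-9-5p was at 163703 and 182035 CPM (counts scaled to a common library size) in the control libraries and 170588 and 198469 CPM in the SE libraries. The liver microRNA miR-122-5p was between 3.51 and 6.51 CPM in the 4 libraries. Values in CPM are scaled by the trimmed mean of M values (TMM).

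SE replicate 2 stood apart in its composition. MicroRNAs took 93.4% and 93.3% of the counts in the control libraries and 93.1% in SE replicate 1, but 87.3% in SE replicate 2. The other 15 small RNA libraries of the series lay between 92.1% and 95.5%. Named snoRNAs took 1.40%, 1.58% and 1.49% in the first 3 of these libraries and 3.03% in SE replicate 2, against 1.15% to 1.59% in the other 15 libraries. The Gm-numbered RNA genes showed the same split, with 2.58%, 2.67% and 2.69% against 5.60%. Between the groups, the share of microRNAs differed by -3.13 percentage points and that of named snoRNAs by 0.77, with exact two-sided permutation p = 0.333 and 0.667. Both had an adjusted p of at least 0.583 over 7 classes, and 2 against 2 libraries cannot reach a p below 0.333. The piRNA-annotated rows took 3.68% in SE replicate 2, against 0.74% to 3.24% in the other 15 libraries. The plot of class shares has SE replicate 2 outside the range of the other 15 libraries for microRNAs, snoRNAs, Gm-numbered genes and piRNA-annotated rows.

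**Figure D1:**
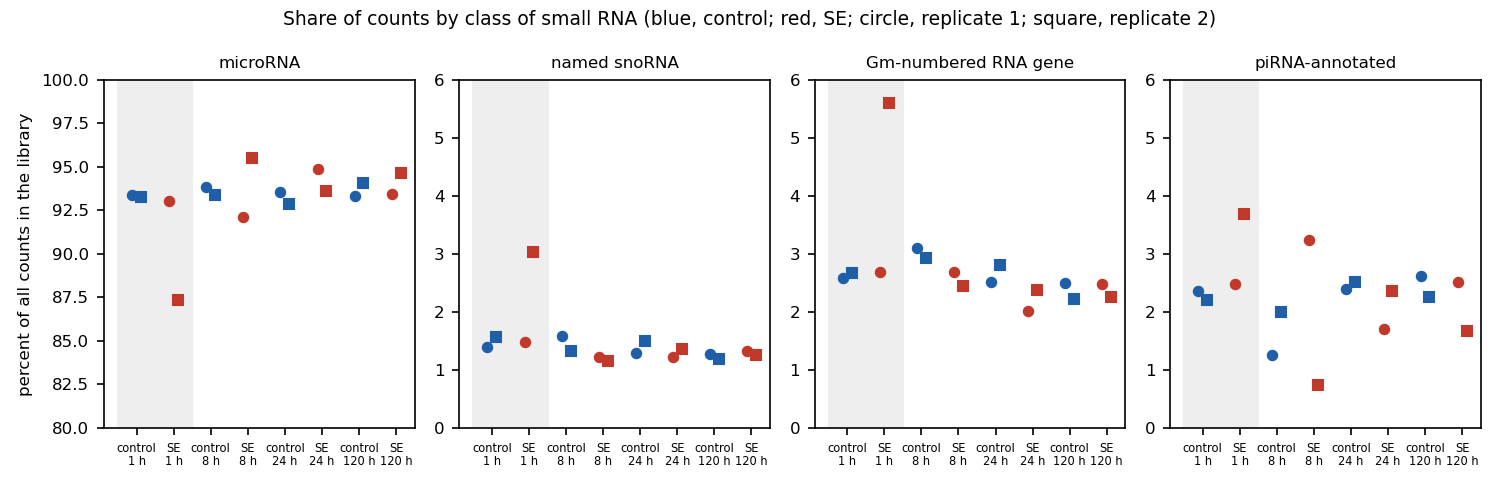
Percent of each library's counts (vertical axes, which start at 80 for microRNAs) in 4 classes of small RNA for the 16 small RNA libraries, by group and time (horizontal axes, 1 h shaded), with blue points for control and red points for SE mice, circles for replicate 1 and squares for replicate 2. SE replicate 2 of 1 h holds 87.3% microRNAs and 3.03% named snoRNAs, outside the range of the other 15 libraries.

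No small RNA passed the threshold at 1 h. In edgeR's quasi-likelihood test across all 1103 rows, 0 were higher (0.0%) and 0 were lower (0.0%) in SE mice at an adjusted p (Benjamini-Hochberg over all rows) under 0.05, and the smallest adjusted p was 0.965. At an unadjusted p under 0.05, 36 rows were higher (3.26%) and 6 were lower (0.544%). DESeq2 likewise called 0 rows in either direction, with 37 higher and 6 lower at an unadjusted p under 0.05. Both SE libraries were above both controls in 195 rows (17.7%) and below both in 116 rows (10.5%), and the median log2 difference of all rows was 0.07.

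The abundant microRNAs differed little. Among the microRNAs with a mean of at least 100 CPM, the median absolute log2 difference was 0.11, 11 differed by over 0.5 and 2 by over 1. Those 2 were miR-1298-5p and miR-448-3p, both of the Htr2c introns. Summed over their seed, the let-7 microRNAs, which are regulators of growth and differentiation, made up 12.5% and 15.8% of microRNA CPM in the control libraries and 13.6% in each SE library. The neuronal microRNA miR-128-3p was at 62889 and 86375 CPM in control and 72442 and 76998 CPM in SE libraries, with overlapping groups. miR-26a-5p, of growth control, was at 50340.0 and 59567 CPM in control and 60291 and 53747 CPM in SE libraries, and the second arm miR-9-3p at 28175 and 31727 CPM in control and 28851 and 27883 CPM in SE libraries. miR-125b-5p, at 43502 and 43781 CPM in control and 40382 and 38998 CPM in SE libraries, was with miR-124-3p below both controls, the only such 2 of the 10 most abundant rows. let-7c-5p overlapped at 19661 and 28968 CPM in control and 22423 and 20824 CPM in SE libraries, and the most abundant rows outside the microRNAs were mmu_piR_000159 and Gm24452, the latter at 4448 and 6951 CPM in control and 5623 and 12118 CPM in SE libraries. In the plot of difference against level, the microRNAs narrow toward 0 at high levels, and the snoRNAs and Gm-numbered genes lie mostly above 0.

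**Figure D2:**
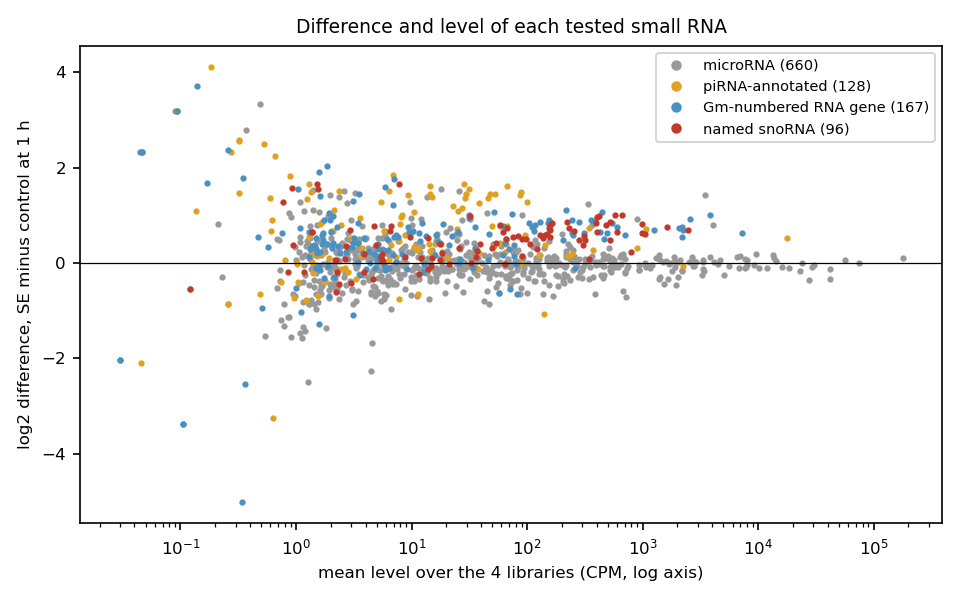
Each tested small RNA of 4 classes with a count at 1 h (number in the key), by its mean level over the 4 libraries (horizontal log axis, CPM) and its log2 difference between SE and control mice (vertical axis). Of the named snoRNAs, 81 of 96 lie above 0, while the microRNAs of at least 100 CPM have a median absolute difference of 0.11.

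Of the named snoRNAs, 81 of 96 had a positive log2 difference, with a median of 0.50 beside 0.07 for all rows, and 0 passed the threshold. Both SE libraries were above both controls for 19 of 96 (19.8%, near the 17.7% of all rows) and below both for 3 (3.12%, beside 10.5% of all rows). In 81 of the 96, SE replicate 2 was the highest of the 4 libraries, beside 424 of all 1103 rows. Without SE replicate 2 the median of the 96 was -0.14 and 30 were above 0; without SE replicate 1 the median was 0.91 and 89 were above 0.

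The snoRNA with the smallest p was Snord38a, a C/D box snoRNA, the type that guides ribose methylation. It was at 376 and 501 CPM in control and 578 and 1175 CPM in SE libraries, a log2 difference of 1.00 ± 0.29 (standard error of the estimate, as in all such values) with an unadjusted p of 0.00566 and an adjusted p of 0.965 in edgeR. Snord87 was at 241 and 322 CPM in control and 325 and 793 CPM in SE libraries. Snord95 was at 314 and 457 CPM in control and 510.9 and 1045 CPM in SE libraries. For all 3 the groups did not overlap, with SE replicate 1 just above the higher control library and SE replicate 2 far above it. Over the 8 control libraries of the 4 times the highest level was 501 CPM for Snord38a and 322 CPM for Snord87. For Snord95 it was 790 CPM, above SE replicate 1 and below SE replicate 2 of 1 h. Snord52 was at 291 and 274 CPM in control and 313 and 704 CPM in SE libraries. Snord91a was at 120.2 and 113 CPM in control and 132.8 and 225 CPM in SE libraries, again with SE replicate 2 highest. The 3 snoRNAs below both controls, Snora20, Snora69 and Snora70, which are of the H/ACA type that guides pseudouridylation, had between 1.62 and 3.57 CPM in every library and differed by at most 0.62 in absolute log2 value.

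The Gm-numbered RNA genes were likewise mostly highest in SE replicate 2. Of 169 tested, 39 (23.1%, beside 17.7% of all rows) were above both controls. SE replicate 2 was the highest library in 125, beside 424 of all 1103 rows. The median of 0.48 became -0.08 without that library. Gm23246 was at 2413 and 2666 CPM in control and 2743 and 7467 CPM in SE libraries, a log2 difference of 1.01 ± 0.38. When SE replicate 1 was left out, so that SE replicate 2 stood alone for SE, 10 rows passed the threshold, all higher: Snord38a, Snord87, Mir5117 and 7 Gm-numbered genes, Gm23246 among them. The others were Gm23301, at 1644 and 1652 CPM in control and 1836 and 3722 CPM in SE libraries, and Gm22357, Gm22744, Gm23201, Gm25744 and Gm25789. These rows were named after their values were seen. With SE replicate 2 left out, 0 rows passed in either direction. The row with the smallest p of all, Gm25379, had 7 and 3 counts in the control libraries and 0 in both SE libraries, which makes it at least 2.62-fold lower against a floor of 3 counts over the SE group.

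Of the microRNAs of the Htr2c introns, miR-1298-5p and miR-448-3p had the largest differences among abundant microRNAs (mean of at least 100 CPM). Htr2c encodes the serotonin 2C receptor, and its microRNAs are known for high levels in choroid plexus, the epithelium that makes cerebrospinal fluid, where Htr2c is strongly transcribed. The table lists 10 mature forms from 5 hairpins (miR-764, miR-1912, miR-1264, miR-1298 and miR-448) and all 10 were tested. Both SE libraries were above both controls for 7 of 10 (70.0%, beside 17.7% of all rows), none was below (beside 10.5% of all rows), 0 passed the threshold and the median log2 difference was 0.85.

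The most abundant form, miR-1298-5p, was at 694 and 3101 CPM in the control libraries and 5520.4 and 4683 CPM in the SE libraries. Control replicate 1 was the lowest library, and both SE libraries were also above control replicate 2. The means were 1897 ± 1702 (SD, n = 2) for control and 5102 ± 592 CPM (SD, n = 2) for SE, a log2 difference of 1.43 ± 0.97 with a 95% interval of -0.69 to 3.55. miR-448-3p followed it, with 71.8 and 326 CPM in control and 498 and 441 CPM in SE libraries and a log2 difference of 1.24 ± 0.91. miR-1912-3p was at 3.33 and 15.0 CPM in control and 31.0 and 22.6 CPM in SE libraries.

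The other arms and hairpins were far below miR-1298-5p. miR-1298-3p, the passenger arm, was at 43.0 and 78.9 CPM in control and 122 and 120.4 CPM in SE libraries. miR-1264-3p was at 9.88 and 34.6 CPM in control and 47.2 and 37.0 CPM in SE libraries, while miR-1264-5p, at 10.8 and 30.2 CPM in control and 31.5 and 25.9 CPM in SE libraries, had overlapping groups. The remaining members, miR-448-5p, miR-764-3p, miR-764-5p and miR-1912-5p, were between 0.24 and 23.1 CPM. Control replicate 1 was the lowest of the 4 libraries for all 10 members, whereas control replicate 2 was below both SE libraries for 7 of them and overlapped with them for 3.

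Summed, the Htr2c intron microRNAs came to 849 and 3613 CPM in the control libraries and 6285 and 5358 CPM in the SE libraries. Over the 8 control libraries of the 4 times the sum ran from 849 to 9696 CPM with a median of 3029.8, so the SE values of 1 h lay inside the control range. The median of the 10 members was 0.30 without control replicate 1 and 1.66 without control replicate 2, and it was 0.74 and 0.86 without SE replicate 1 and 2. Without control replicate 1 the log2 difference of miR-1298-5p was 0.71. With no filter on low counts, where 11109 rows are fitted, miR-1298-5p passed with a log2 difference of 1.38 and an adjusted p of 0.0388 in edgeR.

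The sum of the epithelial microRNAs, most of it miR-204-5p in each library, had the same order of libraries as that of the Htr2c introns. Control replicate 1 was the lowest library for 5 of the 12 tested members of the epithelial list. This list, with miR-204 and miR-211, the miR-200 family, miR-375 and the miR-183 cluster, had 12 of 22 rows tested, of which 6 were above (50.0%, beside 17.7% of all rows) and 1 below both controls (8.33%, beside 10.5% of all rows), with 0 past the threshold and a median log2 difference of 0.76. That median was 0.42 without control replicate 1 and 0.50 without SE replicate 1. miR-204-5p, its most abundant member, was at 1923 and 3984 CPM in control and 5668 and 4626 CPM in SE libraries, a log2 difference of 0.80 ± 0.67. Its control range over the 8 control libraries was 1209 to 8592 CPM with a median of 2215. The list's sum was 2262 and 4406 CPM in control and 6138 and 5081 CPM in SE libraries, and its part in the Htr2c intron microRNA values was not tested.

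The rest of the epithelial list was at low levels. miR-182-5p, which with miR-183-5p and miR-96-5p comes from 1 cluster typical of sensory epithelia and retina, was at 9.05 and 5.97 CPM in control and 12.1 and 27.6 CPM in SE libraries. miR-183-5p was at 6.07 and 5.07 CPM in control and 9.19 and 18.1 CPM in SE libraries. miR-96-5p was at 0.715 and 0.724 CPM in control and 1.26 and 2.96 CPM in SE libraries. All 3 were highest in SE replicate 2 among the libraries of 1 h. Their highest levels in the 8 control libraries of the 4 times were 137.65, 122.4 and 7.19 CPM, in the same order. Each of these was above both SE libraries of 1 h. Of the miR-200 family, which maintains epithelial character, miR-200c-3p was at 1.43 and 1.09 CPM in control and 2.34 and 2.77 CPM in SE libraries, while the far more abundant miR-200b-3p, at 106 and 137.7 CPM in control and 128.1 and 146.1 CPM in SE libraries, overlapped. miR-429-3p, of the same family, was lower in both SE libraries, at 38.3 and 41.1 CPM in control and 33.5 and 33.3 CPM in SE libraries. miR-375-3p, known from endocrine cells, was at 71.7 and 124 CPM in control and 162 and 109.9 CPM in SE libraries, and miR-211-5p, with the seed of miR-204-5p, at 1.31 and 0.905 CPM in control and 1.62 and 0.925 CPM in SE libraries. The scarce miR-200a-5p was at 0.715 and 0.362 CPM in control and 1.08 and 1.29 CPM in SE libraries, and its main arm miR-200a-3p overlapped at 95.7 and 81.6 CPM in control and 86.7 and 91.2 CPM in SE libraries. miR-204-3p, the second arm of miR-204, overlapped at 8.69 and 23.5 CPM in control and 32.2 and 20.9 CPM in SE libraries. Of the forms not tested, miR-141-5p, miR-182-3p, miR-200c-5p, miR-211-3p, miR-375-5p and miR-429-5p had no count in the 4 libraries.

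The miR-34 and miR-449 family, whose members act on p53-linked and ciliary gene sets, was above both controls in miR-34b-5p, miR-34c-5p and miR-449a-5p. Of 11 rows 6 were tested, all 6 with a positive difference as had 635 of all 1103 rows, 3 above both controls (50.0%, beside 17.7% of all rows), 0 past the threshold, with a median of 0.63. miR-34c-5p was at 571 and 672 CPM in control and 1429 and 922 CPM in SE libraries, a log2 difference of 0.92 ± 0.58 with a 95% interval of -0.35 to 2.19. miR-34b-5p was at 32.3 and 26.8 CPM in control and 85.6 and 35.7 CPM in SE libraries, and miR-449a-5p at 7.86 and 7.78 CPM in control and 14.2 and 10.4 CPM in SE libraries. For all 3, SE replicate 1 was the highest library and SE replicate 2 lay between it and the controls.

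The other arms of these hairpins and the most widely expressed member had overlapping groups. miR-34b-3p was at 72.6 and 187 CPM in control and 215 and 142.96 CPM in SE libraries, and miR-34c-3p at 12.1 and 28.95 CPM in control and 39.3 and 23.1 CPM in SE libraries. miR-34a-5p, which has its own locus and is the p53 target of the family in most tissues, was at 254 and 276 CPM in control and 315 and 219.7 CPM in SE libraries, with a log2 difference of 0.01 ± 0.27. The family's sum was 949 and 1198 CPM in control and 2097 and 1354 CPM in SE libraries, inside the range of the 8 control libraries of 343 to 3104 CPM with a median of 1009. The median of the 6 was 0.21 without SE replicate 1, 0.85 without SE replicate 2 and 0.38 without control replicate 1. The plot of summed levels sets these 3 lists side by side over all 16 libraries.

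**Figure D3:**
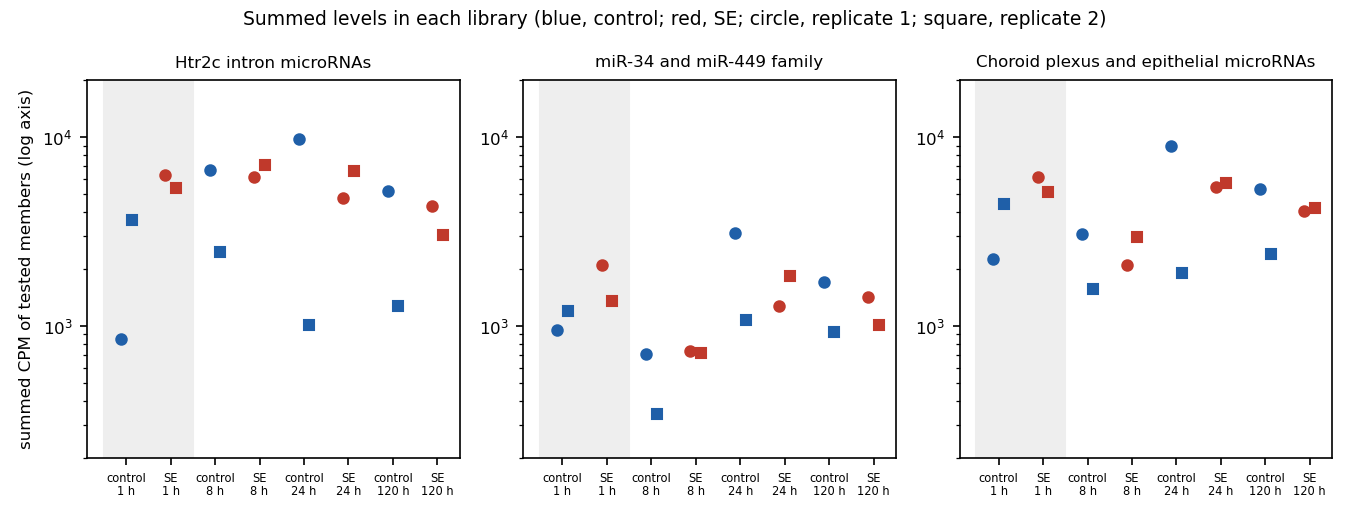
Summed CPM of the tested members of 3 microRNA lists (vertical log axes) in the 16 small RNA libraries, by group and time (horizontal axes, 1 h shaded), with blue points for control and red points for SE mice, circles for replicate 1 and squares for replicate 2. At 1 h the Htr2c intron microRNAs are at 849 and 3613 CPM in control and 6285 and 5358 CPM in SE libraries, while single control libraries of the other times lie both above and below these SE values.

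Of all 663 microRNAs tested, 90 (13.6%, beside 17.7% of all rows) were above and 100 (15.1%, beside 10.5% of all rows) below both controls, and the up to 10 with the smallest p in each direction are given here. Among those higher, miR-3470a was at 1.79 and 1.63 CPM in control and 2.34 and 7.21 CPM in SE libraries with an unadjusted p of 0.0218 in edgeR, and miR-205-5p, an epithelial microRNA of skin, was at 1.07 and 1.63 CPM in control and 3.24 and 4.44 CPM in SE libraries. miR-143-5p, of smooth muscle, was at 2.98 and 2.53 CPM in control and 4.32 and 5.18 CPM in SE libraries, while its abundant arm miR-143-3p overlapped, at 7223 and 7674 CPM in control and 7213 and 8665 CPM in SE libraries. miR-152-3p was at 173 and 217.7 CPM in control and 241 and 271 CPM in SE libraries. miR-199a-5p, of mesenchymal cells, was at 16.9 and 14.1 CPM in control and 24.3 and 24.4 CPM in SE libraries. miR-706, miR-6516-3p and miR-200c-3p were under 4 CPM in every library, and miR-6240 was at 13.5 and 13.2 CPM in control and 58.0 and 17.9 CPM in SE libraries.

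Among those lower, several came from the imprinted cluster of chromosome 12, whose microRNAs are made from the maternal allele and are strongest in neurons. miR-376b-3p was at 963 and 669.9 CPM in control and 612 and 476 CPM in SE libraries, a log2 difference of -0.59 ± 0.26 and an unadjusted p of 0.0422 in edgeR. miR-369-5p was at 537 and 405 CPM in control and 320.2 and 279 CPM in SE libraries. miR-376c-3p, at 218.3 and 212 CPM in control and 181.8 and 124 CPM in SE libraries, and miR-495-3p, at 1515 and 1601 CPM in control and 1342 and 1112 CPM in SE libraries, were also below both controls. miR-3071-3p, of the same cluster, was at 155.4 and 87.0 CPM in control and 75.3 and 80.4 CPM in SE libraries. Of the cluster's tested forms, 89 had a RefSeq position and were taken by it after these values were seen. Forms without a RefSeq position, such as miR-376c-3p, were left out. Of the 89, 12 were below (13.5%, beside 10.5% of all rows) and 11 above both controls (12.4%, beside 17.7% of all rows), with a median of -0.05. The sum of the 89 was 45161 and 46625 CPM in control and 45186 and 43796 CPM in SE libraries.

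Of the other lower microRNAs, miR-30b-5p was the most abundant, at 2195 and 2291 CPM in control and 1614 and 1651 CPM in SE libraries with a log2 difference of -0.46 ± 0.25. miR-350-3p was at 39.9 and 27.5 CPM in control and 23.8 and 20.3 CPM in SE libraries. The passenger arm let-7g-3p was at 10.7 and 3.08 CPM in control and 2.52 and 1.85 CPM in SE libraries, a difference that rested largely on control replicate 1, while its main arm let-7g-5p was at 22686 and 25428 CPM in control and 22079 and 26226 CPM in SE libraries. miR-6418-3p, the microRNA with the smallest p, had 17 and 13 counts in the control libraries and 2 in each SE library, a ratio of 0.169 with an exact 95% counting interval of 0.0434 to 0.481. miR-6951-5p and miR-466h-3p were likewise below 4 CPM everywhere.

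The activity and seizure regulated microRNAs, a list of species known to respond to neuronal firing or SE over hours to days, gave small differences on both sides of 0. Of 28 tested, 1 was above (3.57%, beside 17.7% of all rows) and 2 were below both controls (7.14%, beside 10.5% of all rows), 0 passed and the median log2 difference was -0.05. miR-132-3p, a target of the transcription factor CREB that shapes dendritic spines, was at 3142 and 2576 CPM in control and 3287 and 2209 CPM in SE libraries. Its log2 difference was -0.06 ± 0.26 with a 95% interval of -0.62 to 0.51. miR-212-3p, with the same seed, was at 275 and 213 CPM in control and 232 and 169 CPM in SE libraries, with an interval of -0.76 to 0.19. miR-134-5p, a dendritic regulator of Limk1, was at 201 and 169 CPM in control and 189.5 and 170.0 CPM in SE libraries, with an interval of -0.48 to 0.40. The groups overlapped for these 3. miR-134-3p, at 7.74 and 4.34 CPM in control and 3.42 and 4.62 CPM in SE libraries, and miR-22-5p, at 446 and 319 CPM in control and 327 and 282 CPM in SE libraries, overlapped as well. The second arms of the miR-132 and miR-212 hairpins were measured too. miR-132-5p was at 619 and 562 CPM in control and 574 and 540.4 CPM in SE libraries. miR-212-5p was at 449 and 497 CPM in control and 419 and 483 CPM in SE libraries.

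The brain-enriched microRNAs had 5 of 22 tested members below both controls (22.7%, beside 10.5% of all rows) and none above (beside 17.7% of all rows), with a median of -0.14. That median was -0.04 without control replicate 1, -0.33 without control replicate 2 and -0.28 without SE replicate 1. miR-124-3p, the main neuronal microRNA, was at 53884 and 38850.2 CPM in control and 38023 and 35653 CPM in SE libraries, a log2 difference of -0.33 ± 0.28 with a 95% interval of -0.95 to 0.29. miR-129-2-3p was at 444 and 377 CPM in control and 357 and 311 CPM in SE libraries, and miR-138-1-3p at 25.4 and 21.7 CPM in control and 17.8 and 12.8 CPM in SE libraries. miR-129-1-3p was at 79.8 and 45.4 CPM in control and 43.4 and 44.9 CPM in SE libraries, its SE values just below control replicate 2. miR-138-5p overlapped at 2238 and 1485 CPM in control and 1733 and 1228 CPM in SE libraries. The sum of the list, 339163 and 366153 CPM in control and 338476 and 368149 CPM in SE libraries, did not separate the groups.

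Several microRNAs were high in control replicate 1 alone, so that their groups overlapped. miR-153-3p, a neuronal microRNA, was at 322 and 89.4 CPM in control and 142.9 and 111 CPM in SE libraries. miR-22-3p was at 2616 and 928 CPM in control and 1279 and 1344 CPM in SE libraries. The glial list had 14 tested members, of which 2, miR-23a-3p and miR-23a-5p, were above both controls (14.3%, beside 17.7% of all rows) and 1, miR-338-3p, was below both (7.14%, beside 10.5% of all rows). The miR-23a forms were named after their values were seen. The list's median was -0.06, and 0.07 without control replicate 1. miR-29a-3p was at 40663 and 21545 CPM in control and 24481 and 23838 CPM in SE libraries and miR-29b-3p at 1290.2 and 507 CPM in control and 582 and 507 CPM in SE libraries. miR-338-3p, of oligodendrocytes, was below both controls at 7.26 and 4.70 CPM in control and 4.504 and 2.96 CPM in SE libraries. miR-146a-5p, which restrains innate immune signalling, overlapped at 162 and 132 CPM in control and 124 and 176 CPM in SE libraries. miR-155-5p, which promotes it, overlapped at 5.002 and 10.5 CPM in control and 13.7 and 5.92 CPM in SE libraries.

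The let-7 family had 19 members tested, of which 3 were below (15.8%, beside 10.5% of all rows) and none above both controls (beside 17.7% of all rows), with a median of -0.11 (-0.28 without control replicate 1) and sums of 107592 and 144812 CPM in control and 117803 and 120879 CPM in SE libraries. let-7f-5p was at 25925 and 36258 CPM in control and 29473 and 30623 CPM in SE libraries. Of its passenger arms, let-7b-3p was at 69.3 and 73.6 CPM in control and 62.3 and 56.2 CPM in SE libraries, and let-7c-1-3p at 13.5 and 18.5 CPM in control and 11.2 and 14.4 CPM in SE libraries. let-7i-3p was high in control replicate 1 alone, at 82.2 and 26.2 CPM in control and 30.3 and 31.8 CPM in SE libraries. Of 100 hairpins with at least 10 CPM in both arms, the arms had differences of the same sign in 61, and the median absolute gap between them was 0.18 on the log2 scale.

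Markers of other tissues gave sums that overlapped between the groups. The 10 tested vascular microRNAs summed to 15543 and 18154 CPM in control and 17015 and 18087 CPM in SE libraries, with a median of 0.11, and the endothelial miR-126a-3p was at 2608 and 1974 CPM in control and 1883 and 2275 CPM in SE libraries. miR-10b-5p, scarce in brain, ran from 1.31 CPM in control replicate 1 to 17.8 CPM in SE replicate 2, miR-222-5p was at 19.9 and 17.0 CPM in control and 21.4 and 22.7 CPM in SE libraries, and miR-145a-3p of smooth muscle at 83.0 and 115 CPM in control and 106 and 121 CPM in SE libraries. The 6 tested blood microRNAs summed to 400.4 and 416 CPM in control and 414 and 355 CPM in SE libraries, with the red cell microRNA miR-451a at 255 and 299.7 CPM in control and 283 and 248 CPM in SE libraries. The other blood members overlapped too, miR-144-3p at 20.6 and 6.88 CPM in control and 11.0 and 6.10 CPM in SE libraries, miR-144-5p at 16.7 and 19.5 CPM in control and 22.5 and 15.3 CPM in SE libraries, the lymphoid and myeloid miR-142a-3p at 25.6 and 10.1 CPM in control and 13.9 and 7.40 CPM in SE libraries and the myeloid miR-223-3p at 20.01 and 29.5 CPM in control and 30.3 and 22.2 CPM in SE libraries. The 5 tested liver and muscle microRNAs summed to 158 and 113 CPM in control and 136 and 131 CPM in SE libraries. The muscle microRNAs were at or below 6 CPM in each library, miR-206-3p at 3.10 and 4.16 CPM in control and 2.16 and 2.77 CPM in SE libraries, miR-1a-3p at 3.45 and 3.08 CPM in control and 3.42 and 5.92 CPM in SE libraries and miR-133a-5p at 2.26 and 1.27 CPM in control and 1.08 and 1.66 CPM in SE libraries. In the plot of list members, the Htr2c intron, miR-34 and epithelial lists lie mostly to the right of 0 and the others around it.

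**Figure D4:**
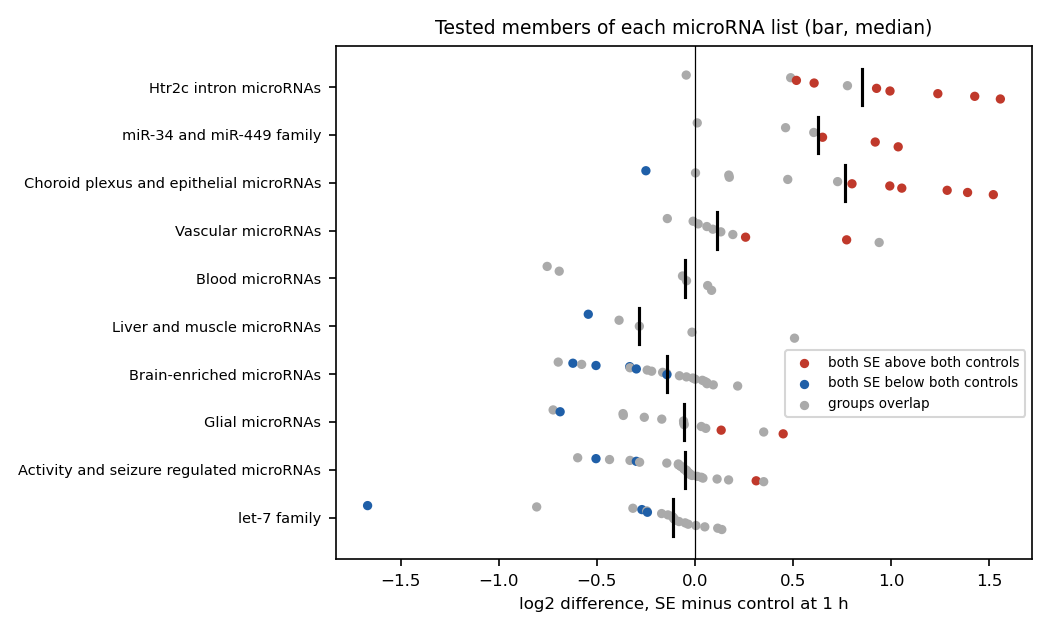
Log2 difference between SE and control mice at 1 h (horizontal axis) of each tested member of 10 microRNA lists (vertical axis), red where both SE libraries are above both controls, blue where both are below, grey where the groups overlap, with a bar at each list's median. The Htr2c intron list has its median at 0.85 and the activity and seizure regulated list at -0.05, and no member passed the threshold.

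A list of 18 microRNA forms taken from the study's own text on 1 h had 17 tested. That text gives miR-143-3p and miR-143-5p, and likewise the forms of miR-27a and miR-375, without an arm, so both arms were listed. The microRNAs were chosen on these same libraries, so their direction is not independent evidence. The study called them at a p under 0.05 and states no adjustment. In edgeR, 0 of the 17 had an unadjusted p under 0.05 in either direction. Both SE libraries were above both controls for 8 (47.1%, beside 17.7% of all rows) and below both for 1 (5.88%, beside 10.5% of all rows), 0 passed the threshold, and the median log2 difference was 0.77. Without SE replicate 1 that median was 0.25. Those not described above were miR-27a-3p, at 701 and 450.2 CPM in control and 534 and 589 CPM in SE libraries, miR-6236, at 23.8 and 14.5 CPM in control and 36.4 and 21.8 CPM in SE libraries, and miR-6538, at 11.2 and 5.61 CPM in control and 24.1 and 7.77 CPM in SE libraries. All 3 overlapped, as did the second arm miR-27a-5p, at 1.79 and 0.543 CPM in control and 1.08 and 1.29 CPM in SE libraries. miR-5106 was at 11.1 and 3.80 CPM in control and 1.08 and 2.03 CPM in SE libraries, a log2 difference of -2.27 ± 2.68, and it was the only lower row to pass with no filter on low counts.

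Of the 140 piRNA-annotated rows tested, 40 were above (28.6%, beside 17.7% of all rows) and 3 below both controls (2.14%, beside 10.5% of all rows), 0 passed, and the median was 0.40, which became 0.00 without SE replicate 2. SE replicate 2 was the highest library in 66 of them and SE replicate 1 in 40, beside 424 and 210 of all 1103 rows. One row, mmu_piR_000159, took 69.2% and 66.9% of all piRNA-annotated counts in the control libraries and 66.9% and 72.7% in the SE libraries, so most of the class was this single row. Its level was 14997 and 14327 CPM in control and 15290.0 and 27022 CPM in SE libraries.

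Other piRNA-annotated rows were highest in SE replicate 1 instead. mmu_piR_022956 was at 30.7 and 36.0 CPM in control and 155.5 and 47.3 CPM in SE libraries, and mmu_piR_015769 at 7.03 and 7.24 CPM in control and 29.4 and 14.4 CPM in SE libraries. mmu_piR_000634 was at 16.1 and 16.1 CPM in control and 60.0 and 33.7 CPM in SE libraries, with a log2 difference of 1.54 ± 1.49, and it was, with miR-1298-5p, 1 of the 2 higher rows that passed with no filter. mmu_piR_033734 had its high value in SE replicate 2, with 265 and 248 CPM in control and 280.3 and 576 CPM in SE libraries. The scarce mmu_piR_038339 was at 0.834 and 0.543 CPM in control and 1.44 and 2.59 CPM in SE libraries and mmu_piR_038428 at 2.14 and 4.34 CPM in control and 4.68 and 10.7 CPM in SE libraries. Only mmu_piR_000366, mmu_piR_002190 and mmu_piR_007158 of the tested rows were below both controls, the latter 2 at under 15 CPM in every library. The row mmu_piR_000366 was lower in both SE libraries, at 244 and 136 CPM in control and 117 and 63.6 CPM in SE libraries.

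The SE difference at 1 h was then compared with that at the later times, each against control libraries of its own. In edgeR, 0 of 1103 rows (0.0%) had an SE difference at 1 h that departed from that at 8 h, 24 h or 120 h at an adjusted p under 0.05, and at an unadjusted p under 0.05 51, 31 and 30 rows had a higher and 58, 6 and 6 a lower difference at 1 h. miR-1298-5p differed between SE and control mice by 1.43 ± 0.97 at 1 h on the log2 scale. At 8 h, 24 h and 120 h it differed by 0.49 ± 0.95, 0.10 ± 0.95 and 0.18 ± 0.95. Its 1-h difference less that at 24 h was 1.32 ± 1.35. miR-204-5p differed by 0.80 ± 0.67 at 1 h and by 0.21 ± 0.66, 0.03 ± 0.66 and 0.13 ± 0.66 later, and its 1-h difference less that at 24 h was 0.77 ± 0.94. miR-34c-5p differed by 0.92 at 1 h and by 0.63, -0.56 and -0.17 later, and its 1-h difference less that at 24 h was 1.48 ± 0.82 with an adjusted p of 1.00. Snord38a differed by 1.00 at 1 h and by -0.31, -0.07 and 0.16 later, with an adjusted p of 0.463 for 1 h against 8 h. The libraries of 8 h carry other title prefixes than those of the other 3 times, and at 8 h the prefix also differs between SE and control libraries. Title prefixes were taken here as batches, which no label states.

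mRNA libraries of 1 h, from 3 SE and 2 control mice in 2 batches by title prefix, gave a second readout of the genes that hold these microRNAs. No source says that the mRNA and small RNA libraries came from the same mice. Of 16264 genes tested, 13 passed the threshold (0.0799%), all higher, and none of the 3 host genes or 10 choroid plexus genes was among them. Htr2c mRNA was at 124 and 96.7 CPM in control and 142.5, 120.3 and 117 CPM in SE libraries, with overlapping groups and a log2 difference of 0.20 ± 0.14. Trpm3 mRNA, host of miR-204, was at 201 and 193 CPM in control and 303, 226 and 207 CPM in SE libraries, above both controls, with a log2 difference of 0.32 ± 0.16. Egfl7 mRNA, host of miR-126a, was at 6.18 and 8.48 CPM in control and 5.82, 7.77 and 5.92 CPM in SE libraries.

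The choroid plexus mRNAs were all on the higher side without passing the test. All 10 had a positive log2 difference, with a median of 0.48 beside 0.00 for all genes, and 4 had all SE libraries above both controls (9.83% of all 16264 genes did) and none had all below (8.63% of all genes did). Control replicate 2 was the lowest library for each of the 10. Kl mRNA, 1 of those with overlapping groups, was at 241 and 150 CPM in control and 304, 220 and 269 CPM in SE libraries. Ttr mRNA, which encodes the thyroxine carrier transthyretin, was at 2324 and 2000.0 CPM in control and 4311, 2563 and 2681 CPM in SE libraries, a log2 difference of 0.56 ± 0.21. Kcnj13 mRNA, for a potassium channel of that epithelium, was at 47.6 and 39.4 CPM in control and 93.6, 61.2 and 63.0 CPM in SE libraries, with a log2 difference of 0.74 ± 0.20 and an adjusted p of 0.843 in edgeR. Otx2, its transcription factor, and the bicarbonate transporter gene Slc4a5 were the other 2, while Sostdc1 mRNA was at 42.8 and 25.1 CPM in control and 45.9, 26.8 and 35.7 CPM in SE libraries. With batch as a covariate the log2 difference of Ttr mRNA was 0.53 and that of Kcnj13 mRNA 0.73, and without SE replicate 1 they were 0.28 and 0.51.

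**Figure D5:**
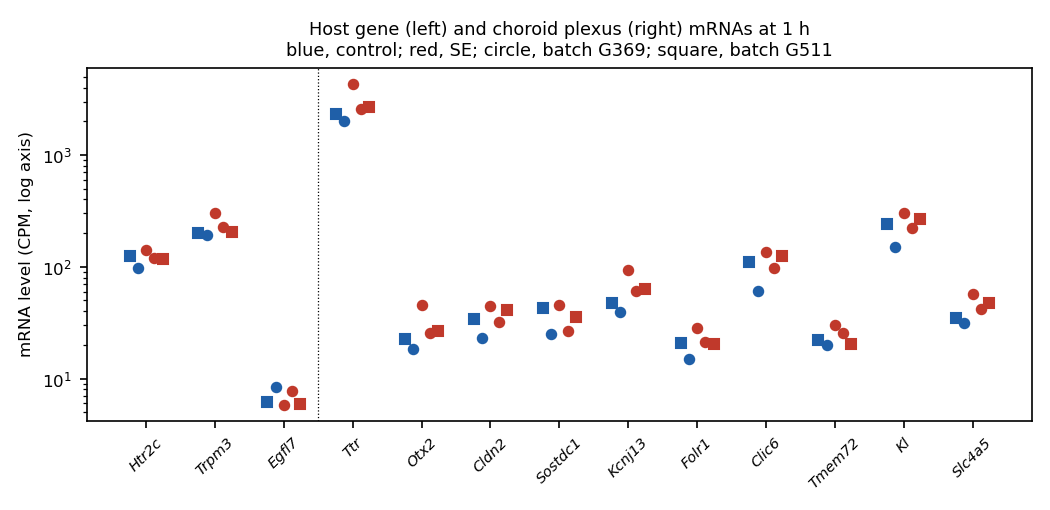
mRNA levels (vertical log axis, CPM) of 3 host genes (left of the dotted line) and 10 choroid plexus genes (right) in the 5 mRNA libraries of 1 h, blue for control and red for SE mice, circles for batch G369 and squares for batch G511 (batches by title prefix). The 3 SE libraries are above both controls for Ttr, Otx2, Kcnj13, Slc4a5 and Trpm3, and none of these passed the threshold.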

How the data were processed

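Small RNA was measured in 16 libraries of left hippocampus (per the labels' extract protocol), 2 SE and 2 control mice at each of 4 times, and the 4 libraries of 1 h were compared. The deposited small RNA values are raw counts per small RNA, which the authors made by demultiplexing with bcl2fastq, clipping adapters, trimming 4 bases off both read ends and aligning and counting with Oasis 2.0. The genome build of that step is not given in the sources used here. The deposited mRNA values are raw counts per gene, made by the authors with HISAT2 2.1.0 and HTSeq.

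Counts were fitted in edgeR 4.0.16 (R 4.3.3) with TMM scaling, the filterByExpr filter over 8 groups and quasi-likelihood tests, all 16 libraries in 1 model and Benjamini-Hochberg adjustment over 1103 rows, with a threshold of 0.05. The totals of 5125815 to 7683708 counts at 1 h and 2 mice a group limit the precision. Counting intervals are exact at 95% and cover counting error only. Class shares were compared with exact permutation tests (scipy 1.17.1), and the scripts were tested on simulated data. The mRNA counts of 1 h were fitted alone. Replicates 1 and 2 carry a number in the labels, no label pairs them, and no source ties libraries to separate litters or days. Chi-square tests of counts between the 2 libraries of each of the 8 small RNA groups found no identical pair. Named rows were, by rule, up to 10 microRNAs, 5 snoRNAs and 5 piRNA-annotated rows in each direction by smallest p among those whose groups did not overlap, the 10 most abundant rows, microRNAs from the study's text on 1 h, up to 4 members of each list by smallest p, all members of 3 lists (Htr2c intron, miR-34 and miR-449, choroid plexus and epithelial) and the host and choroid plexus mRNAs. The lists and members were chosen with earlier results of these data known, and the chromosome 12 cluster after its values were seen. Alternatives were DESeq2 1.42.0, other scalings, other filters, a likelihood ratio test, a replicate block, subsets of libraries and leaving out each replicate. Mature sequences and positions are from RefSeq (GRCm38.p6), which matched 570 of 663 tested microRNAs.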

Additional observations from a re-analysis of the deposited data

How the results depend on the processing

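Calls at 1 h changed in 2 of the settings tried, and the cause was not tested. With no filter on low counts, 2 rows were higher and 1 was lower in SE mice. Leaving out each replicate gave 0 to 10 higher rows and 0 lower rows, the 10 when SE replicate 1 was left out and SE replicate 2, the library with the high share of snoRNAs, was assumed to vary like the other groups. At an unadjusted p under 0.05 instead of the adjusted one, 36 were higher and 6 lower. With a replicate block the counts were 0 and 0. The deviations of same-numbered libraries from their group means correlated at 0.18 for 1 h, -0.20 for 8 h, -0.04 for 24 h and -0.08 for 120 h. With a single value per time, these cannot show whether same-numbered libraries share a litter, day or preparation. For the difference between 1 h and the later times, no filter gave 24 higher and 11 lower rows against 8 h, 24 higher against 24 h and 37 higher against 120 h, and DESeq2 gave 1 against 24 h, miR-5108, which had at most 5 counts in a library. Other scalings moved the median of all 1103 rows by under 0.1. Of the named small RNAs, 1690 values under the alternatives kept their sign and side of the threshold, 90 changed sign and 13 passed the threshold, and 41 of the 123 changed sign under at least 1 alternative. Depth limits the scarce rows, and with 2 mice a group a p that misses the threshold does not show that values did not differ.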

Other observations

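After these data were seen, the summed level of the Htr2c intron microRNAs and the level of miR-204-5p, from another chromosome, were found to go together across libraries. On the log2 scale, the 12 libraries with the title prefix of the 1-h libraries gave a Pearson's r of 0.97 (permutation p = 4e-05, adjusted 0.0001). Spearman's rho was 0.94 (permutation p = 2e-05, adjusted 6e-05, the raw p being the smallest the permutations can give). Without the 2 libraries farthest from the median r was 0.96. Over all 16 libraries of all title prefixes r was 0.63 (permutation p = 0.0108, adjusted 0.0162) and rho 0.57 (permutation p = 0.0226, adjusted 0.0339), with r = 0.54 without the 2 farthest. Over the 8 control libraries r was 0.75 (exact permutation p = 0.0346, adjusted 0.0346) and rho 0.76 (exact permutation p = 0.0368, adjusted 0.0368), with r = 0.46 without the 2 farthest, so there the relation rests on those 2. These 3 relations share libraries. The pair was picked on these same libraries, so the p-values cannot serve as a test of the relation. The lowest sums of the Htr2c intron microRNAs were in control libraries of 3 times, with 849 CPM at 1 h, 1006 CPM at 24 h and 1277 CPM at 120 h.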
